A study of Bos taurus with 43 samples.

Results

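PCCB, PCCA and MUT encode enzymes of the route that carries propionyl-CoA into the citric acid cycle. PCCB and PCCA are the beta and alpha chains of mitochondrial propionyl-CoA carboxylase, and the alpha chain carries the biotin cofactor. The carboxylase makes methylmalonyl-CoA, the epimerase MCEE turns it, and MUT, methylmalonyl-CoA mutase, uses a cobalamin cofactor to convert it to succinyl-CoA. In ruminants much of the propionate made in the rumen is used by the liver, while in muscle propionyl-CoA also arises from the breakdown of valine, isoleucine and odd-chain fatty acids.

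The members were chosen as every probe whose gene name, description or accession names one of these genes. There were 3 such probes among 21475 gene probes, 1 for each gene, and each was printed as 2 spots on the array. All 3 were among the 16354 probes kept by a filter on low signal. PCCB was probe A_73_119213 (NM_001038548), PCCA was A_73_104149 (XM_868233) and MUT was A_73_102766 (NM_173939, current symbol MMUT). PCCA was named only by its description.

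The series holds 43 bovine oligonucleotide arrays of 1 colour, each hybridized with RNA from the biceps brachii, a foreleg muscle, of a separate animal at slaughter. The 4 positive animals (S21, S54, S56 and S57) are labelled as suspected of corticosteroid treatment. The study names positive animals of the same numbers under another prefix, on the basis of thymus histology and urinary dexamethasone, a synthetic glucocorticoid, and the match rests on those numbers alone. The 21 unknown animals were commercial beef cattle of the same sampling, and their labels give corticosteroid treatment as unknown. The study detected no dexamethasone in urine listed under their numbers. Most commercial animals were Charolais, Limousine or their cross. The labels mark the negative controls K7, K8, K10, K11 and K12, which the methods give as Charolais×Limousine cross-breed bulls of 18 months, and 13 animals coded C, which they give as Holstein of 13 to 18 months. The commercial animals were 12 to 24 months old. The study divided the unknown animals by principal component analysis into a set A of 11 and a set B of 10. These sets were drawn from the same arrays, so they are described here by their lowest, median and highest values without a test.

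Signals are log2 processed signals after cyclic loess normalization over the 43 arrays, and 1 unit is a 2-fold difference. With 1 muscle piece per animal, a different mix of fibres or cells and a different amount of mRNA per cell cannot be told apart. Cross-breed arrays lay on slides 1 to 4 and on 2 scanners that read no other array. Holstein arrays lay on slides 13 to 19. Batch and group cannot be told apart for any comparison with a control group. Only slides 9 and 10 held 2 groups, with the 4 positive animals beside the unknown animals 50, 78, 79 and 81, all of set B.

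One set of arrays went against its description. The methods give all animals as male, yet ZFY, a zinc finger gene of the Y chromosome, read only 2.84 to 4.53 in log2 signal on the 11 unknown arrays of set A. It was 5.52 to 6.98 on those of set B, 6.79 to 7.26 in the positive, 5.47 to 6.93 in the cross-breed and 5.61 to 7.02 in the Holstein animals. The 11 values overlapped with none of the others, while 11.7% of all probes did not overlap between sets B and A. No other gene of the Y chromosome is given here, and the low values lay around 4, the limit of the signal filter. The sex of these animals is therefore not judged, and the part of the ZFY difference in the results was not tested. The differences between unknown and Holstein animals are therefore given with and without these 11 arrays, for the members and for each pathway gene whose difference in that comparison is named.

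PCCB had its brightest signals in the positive animals and in set B. Its log2 signal was 12.57 in S21, 12.45 in S54, 12.46 in S56 and 12.50 in S57. In the cross-breed controls it was 11.49 in K7, 11.46 in K8, 11.39 in K10, 11.42 in K11 and 11.34 in K12. The spread within each group was small, and the lowest positive animal stood well above the highest cross-breed control. In the 13 Holstein controls PCCB ran from 11.06 (C18) to 12.07 (C41) with a median of 11.84, also below every positive animal. Of all 16354 probes, 43.3% had ranges that did not overlap between positive and cross-breed animals (21.7% as higher) and 16.4% between positive and Holstein animals (8.43% as higher). Set B ran from 12.21 to 12.89 with a median of 12.55, and each of its 10 animals exceeded every cross-breed and Holstein control. Set B lay apart from the Holstein range in 3.15% of all probes (1.58% as higher) and from the cross-breed range in 20.6% (9.67% as higher).

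**Figure D1:**
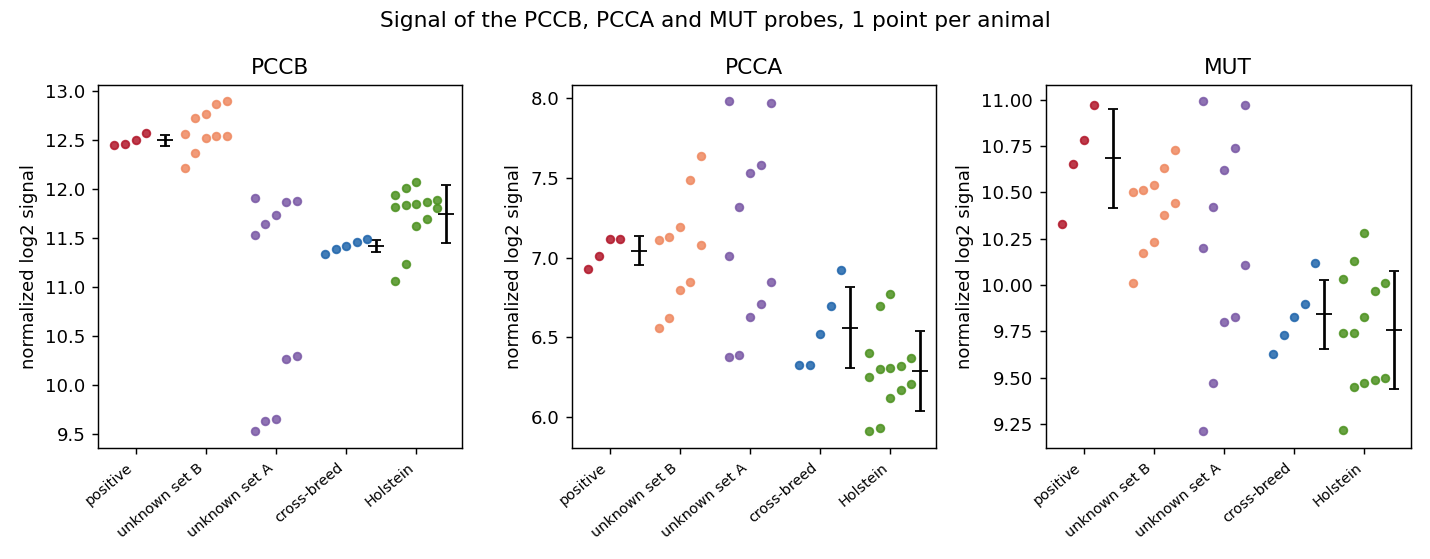
Normalized log2 signal (y axis) of the PCCB, PCCA and MUT probes in the positive, unknown (sets B and A), cross-breed and Holstein animals (x axis), 1 point per animal, with the mean and SD in black for the labelled groups other than unknown. PCCB in set A fell into 6 animals at 11.53 to 11.91 and 5 at 9.53 to 10.30.

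Set A held the widest range of PCCB. Its signal was 11.91 in animal 37, 11.88 in 49, 11.87 in 36, 11.73 in 38, 11.64 in 51 and 11.53 in 58. These 6 lay within the Holstein range and above the cross-breed range. It was 10.30 in animal 270, 10.27 in 269, 9.66 in 263, 9.64 in 265 and 9.53 in 266. These 5 were the lowest of all 43 arrays, and a gap of 0.76 separated animal 270 from the next animal, the Holstein C18. No animal of set A reached the lowest value of set B. Of all 16354 probes, 11.7% did not overlap between sets B and A, and 6.2% lay higher in set B as PCCB did.

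PCCA, the biotin-carrying chain, followed another order. Its log2 signal was 7.01 in S21, 7.12 in S54, 6.93 in S56 and 7.12 in S57. In the cross-breed controls it was 6.52 in K7, 6.33 in K8, 6.92 in K10, 6.33 in K11 and 6.70 in K12. The 4 positive animals were above the cross-breed controls, as in 21.7% of all probes, although S56 exceeded K10 by only a hundredth of a unit. Holstein controls ran from 5.91 (C17) to 6.77 (C41) with a median of 6.30. Set B ran from 6.56 to 7.64 with a median of 7.09, and set A from 6.38 to 7.98 with a median of 7.01. Set B lay within the range of set A, and the highest PCCA of all arrays was in set A, in animals 38 and 37. PCCA was well above background on 42 of 43 arrays, the exception being animal 79.

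MUT is the last enzyme of the route. Its log2 signal was 10.65 in S21, 10.78 in S54, 10.33 in S56 and 10.97 in S57. In the cross-breed controls it was 10.12 in K7, 9.63 in K8, 9.73 in K10, 9.90 in K11 and 9.83 in K12. Each positive animal exceeded each cross-breed control, as in 21.7% of all probes. Holstein controls ran from 9.22 (C48) to 10.28 (C24) with a median of 9.74. They lay below the positive animals, as in 8.43% of all probes. Set B ran from 10.01 to 10.73 with a median of 10.47, and set A from 9.21 to 10.99 with a median of 10.20.

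In order of mean signal, PCCB was highest in the positive animals (12.50 ± 0.0562, SD, n = 4), then Holstein (11.75 ± 0.292, n = 13), unknown (11.71 ± 1.13, n = 21) and cross-breed animals (11.42 ± 0.0599, n = 5). The Holstein and unknown means lay within their spread. PCCA was highest in the unknown (7.09 ± 0.478) and positive animals (7.05 ± 0.0952), followed by cross-breed (6.56 ± 0.252) and Holstein animals (6.29 ± 0.248). For MUT the order was positive (10.68 ± 0.269), unknown (10.31 ± 0.457), cross-breed (9.84 ± 0.184) and Holstein (9.76 ± 0.317). The duplicate spots of an array differed by a median of 0.143 for PCCB, 0.211 for PCCA and 0.108 for MUT.

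The comparison of positive animals with cross-breed controls is the one on which the study trained its 2-gene classifier. PCCB was picked there together with IPO9, an importin, on exactly these 9 arrays. The difference of 1.08 in log2 signal (SE 0.118), a fold of 2.11, is therefore a description without a p-value. PCCA was higher by 0.48 (SE 0.158, limma adjusted p = 0.0259), and MUT by 0.84 (SE 0.168, limma adjusted p = 0.00204). In this comparison 51.7% of all probes passed an adjusted p of 0.05, 25.5% as higher and 26.2% as lower, so both changes stand among many. The call of PCCA was weak. It was lost when S21, S54, S57, K8 or K11 was left out in turn (limma adjusted p up to 0.0644) and with slide (0.0586) or scan day (0.0769) as a random block.

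The same positive animals were also above the Holstein controls. PCCB was higher by 0.75 (SE 0.157, limma adjusted p = 0.00137), PCCA by 0.76 (SE 0.141, adjusted p = 0.000517) and MUT by 0.92 (SE 0.179, adjusted p = 0.000736). As the positive arrays were used to choose PCCB, its value here is not independent of that choice. The background was 36.4% of all probes at this threshold, 17.7% as higher and 18.7% as lower. For each of the 3 probes the lowest positive animal exceeded the highest Holstein control, beside 16.4% of all probes without overlap and 8.43% as higher.

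None of the 3 probes passed the adjusted threshold between the 2 control groups, although some did under other settings. Holstein minus cross-breed was 0.33 for PCCB (SE 0.142, limma adjusted p = 0.0657), -0.27 for PCCA (SE 0.14, adjusted p = 0.115) and -0.08 for MUT (SE 0.157, adjusted p = 0.684). The cross-breed arrays were among those used to choose PCCB, so its value here is not independent of that choice either. The 95% intervals were 0.03 to 0.62, -0.57 to 0.02 and -0.41 to 0.24. PCCB passed with cyclic loess on each pair of arrays (0.39, limma adjusted p = 0.0338), with normexp (0.34, adjusted p = 0.0399) and in the authors' value table (0.35, adjusted p = 0.0457). PCCA passed with 75th percentile scaling (-0.52, limma adjusted p = 0.00576), and PCCA and MUT passed without normalization (-1.44 and -1.06, where the median of all probes was -1.04). In the same comparison 48.3% of all probes passed, 23.9% as higher and 24.4% as lower.

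**Figure D2:**
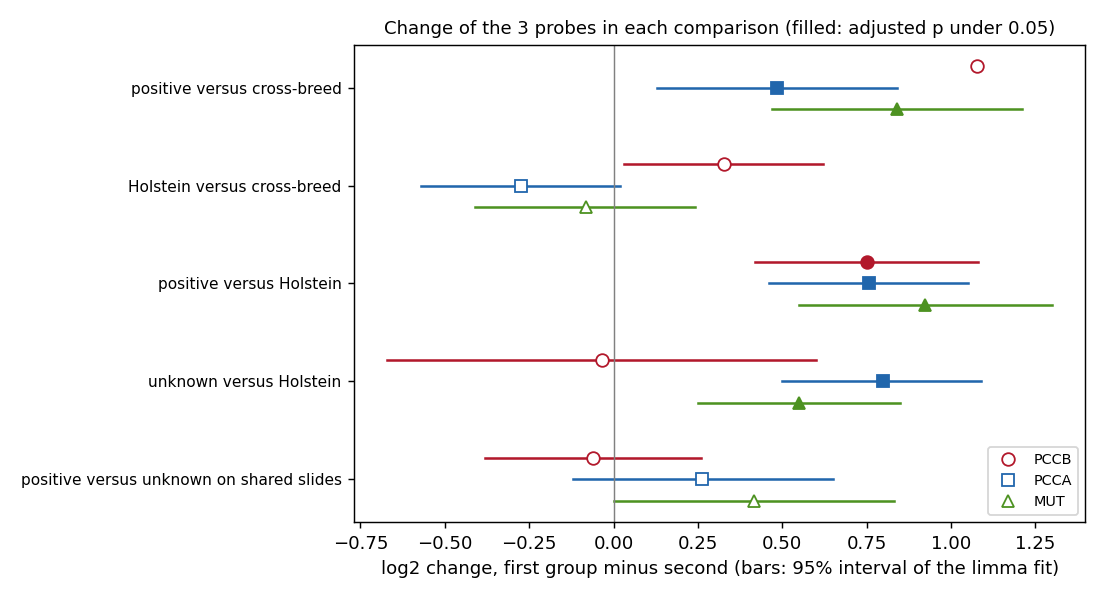
Log2 change (x axis) of PCCB, PCCA and MUT in the 5 comparisons (y axis), first group minus second, with the 95% interval of the limma fit. Filled symbols passed an adjusted p of 0.05, and the PCCB value of positive versus cross-breed animals is drawn without an interval because it was chosen on those arrays.

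The unknown animals against the Holstein controls are the comparison of PCCB that holds none of the arrays on which it was chosen. PCCB differed by -0.03 (SE 0.313, limma adjusted p = 0.942), with a 95% interval of -0.67 to 0.60. PCCA was higher in the unknown animals by 0.80 (SE 0.146, limma adjusted p = 0.000106) and MUT by 0.55 (SE 0.147, limma adjusted p = 0.00392). In this comparison 36.8% of all probes passed, 17.7% as higher and 19.1% as lower. Without the 11 arrays of low ZFY the difference of PCCB became 0.85 (SE 0.115), that of PCCA 0.76 (SE 0.128) and that of MUT 0.66 (SE 0.122). The first is given without a p-value, since the 10 arrays left are those of set B. MUT lost its call with scan day as a random block (0.58, limma adjusted p = 0.0935).

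On the 2 shared slides, where positive and unknown animals were scanned on the same day, no difference passed. Positive minus unknown was -0.06 for PCCB (SE 0.136, limma adjusted p = 0.871, 95% interval -0.38 to 0.26). PCCA differed by 0.26 (SE 0.166, limma adjusted p = 0.581) and MUT by 0.42 (SE 0.178, limma adjusted p = 0.429), with upper bounds of 0.65 and 0.83. Of all 16354 probes, 0 (0%) passed in this comparison of 4 with 4 animals. The PCCB of the unknown animals there was 12.56 in animal 50, 12.37 in 81, 12.54 in 78 and 12.76 in 79. Those values enclosed the 4 positive animals. Against all 21 unknown arrays, which bring in the 11 of set A and other slides and have no slide block, the positive animals differed by 0.79 for PCCB (SE 0.552, limma adjusted p = 0.357) and by -0.04 for PCCA (SE 0.247, adjusted p = 0.927).

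The unknown arrays were spread over 8 slides, and no slide held both sets. Within set A the low PCCB values went with the slide in part and with the animal number throughout. The low animals were 263, 265, 266, 269 and 270, while the others of set A were numbered from 36 to 58. The methods drew the commercial cattle from different batches, which the labels do not name. The part of those batches was not tested. On slide 5 (animals 37, 38, 49 and 51) PCCB was 11.64 to 11.91, PCCA 7.53 to 7.98 and MUT 10.42 to 10.99. On slide 7 (animals 263, 265, 266 and 270) PCCB was 9.53 to 10.30, PCCA 6.38 to 6.85 and MUT 9.21 to 10.11. All 3 probes were lower in every animal of slide 7 than in every animal of slide 5. Slide 6 held both kinds, with PCCB at 11.87 in animal 36, 11.53 in 58 and 10.27 in 269. PCCA was 7.32, 7.01 and 6.39 in these animals and MUT 10.62, 10.20 and 9.80, so all 3 probes kept the same order on that slide.

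**Figure D3:**
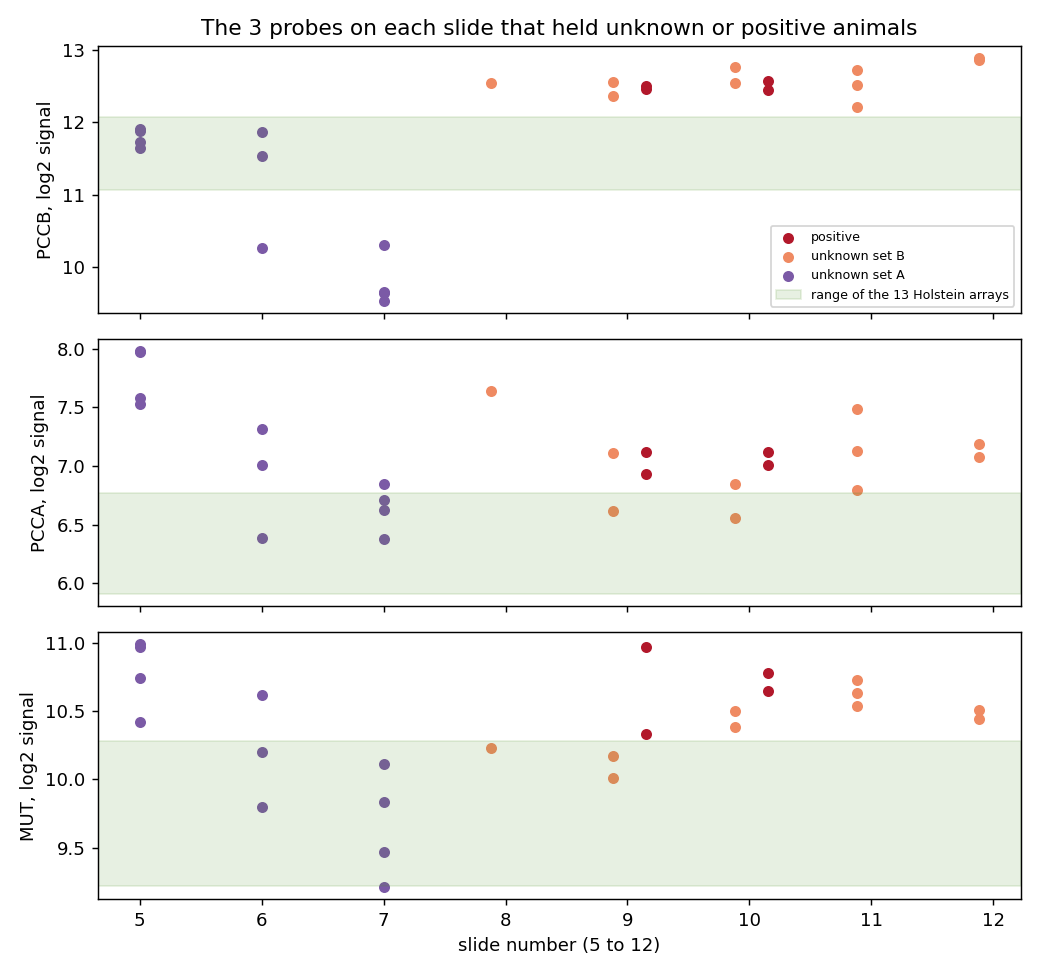
Normalized log2 signal (y axes) of PCCB, PCCA and MUT on each slide that held unknown or positive animals (x axis), 1 point per animal, with the range of the 13 Holstein arrays shaded. On slide 6 PCCB ranged from 10.27 to 11.87, and all animals of slide 7 lay at or below 10.30.

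The 3 probes were also set against each other across animals, without a test of one relation against another. In the 13 Holstein animals PCCA and MUT had r = 0.70 and rho = 0.67 (permutation p = 0.00747 and 0.0151, Benjamini-Hochberg over 6 relations 0.0149 and 0.0454). Without C41 and C44, farthest from the median of PCCA, r was 0.62, and within slides it was 0.85. With each of the 3 other normalizations tried it was weaker, from 0.12 to 0.56, and did not pass. In the 21 unknown animals r and rho were both 0.77 (permutation p = 3e-05 and 7e-05, adjusted 0.00018 and 0.00042). Without animals 38 and 37 r was 0.69, and within slides 0.79. When each pair of arrays was normalized by cyclic loess, this relation turned to r = -0.12. Within set A, r was 0.94 (n = 11), 0.90 without 38 and 37 and 0.86 within slides. Within set B it was 0.28 (n = 10), 0.63 without 76 and 78 and 0.98 within slides. These values are descriptions. Holstein slides held 1 or 2 arrays, and the slides of set B held 1 to 3 of its arrays. In those sets r within slides therefore rests on few differences. The permutations moved animals freely across slides, although PCCA and MUT were both lower on slide 7 than on slide 5. PCCB and PCCA had r = 0.48 in Holstein (rho = 0.30, permutation p = 0.0928 and 0.323, adjusted 0.0965 and 0.395), and 0.20 without C18 and C48. PCCB and MUT had r = 0.48 there (rho = 0.26, permutation p = 0.0965 and 0.395, adjusted 0.0965 and 0.395), which fell to -0.07 without the same animals. The unknown animals fell into separate clusters of PCCB, also within set A, so no test over them is given for PCCB. This does not mean that PCCB varied apart from the other probes there. In set A the animals of low PCCB, on slides 6 and 7, also had the lowest PCCA and MUT of that set. That pattern was not counted over all probes. Within set B, PCCB had r = 0.01 with PCCA and 0.16 with MUT (n = 10), which became 0.06 and 0.57 without 29 and 61 and were 0.04 and 0.10 within slides, as a description.

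The other enzymes of the route did not all move with PCCB. MCEE, the epimerase between the carboxylase and the mutase, was 10.97 ± 0.283 in the positive, 10.47 ± 0.316 in the cross-breed and 10.74 ± 0.363 in the Holstein animals (SD, n = 4, 5 and 13). Its difference of 0.51 between positive and cross-breed animals did not pass (SE 0.202, limma adjusted p = 0.0556), nor did that of 0.24 from Holstein (SE 0.199, adjusted p = 0.372). In the unknown animals it was above Holstein by 0.34 (SE 0.115, limma adjusted p = 0.0199), and by 0.32 without the arrays of low ZFY. This call was lost with slide (limma adjusted p = 0.175) or scan day (0.294) as a random block.

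ACSS1, a mitochondrial acyl-CoA synthetase that activates short-chain acids, was among the probes with a change over 2-fold. Its log2 signal ran from 14.41 to 15.67 in the positive, from 11.18 to 14.10 in the cross-breed and from 10.35 to 13.33 in the Holstein animals. The positive animals did not overlap with either control group. Of all probes, 43.3% did not overlap between positive and cross-breed animals (21.7% as higher). Between positive and Holstein animals 16.4% did not (8.43% as higher). The difference was 2.24 from cross-breed (SE 0.532, limma adjusted p = 0.00543) and 2.99 from Holstein animals (SE 0.448, adjusted p = 7.06e-05). Unknown animals were above Holstein by 1.68 (SE 0.521, limma adjusted p = 0.0114), or 2.73 without the arrays of low ZFY, and the call was lost with scan day as a block (adjusted p = 0.0613). On slide 5 ACSS1 was 14.57 to 15.01 and on slide 7 it was 10.52 to 11.75, the same order as PCCB. The order differed elsewhere: ACSS1 was 13.78 to 14.38 in the unknown animals of slide 9 and 13.23 in animal 29 of slide 12, below slide 5, where PCCB was lower than in those animals. On slide 6 it was 13.56 in animal 36, 13.98 in 58 and 10.40 in 269. ACSS2, its cytosolic counterpart, differed by -0.21 and -0.10 in these comparisons (limma adjusted p = 0.329 and 0.774).

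The 5 lists around the route held 45 probes beside the 3 members, and 44 were tested. In positive against cross-breed animals 20 were higher and 6 lower, 59.1% in all beside 51.7% of all probes. The median log2 change was 0.51 beside -0.03 for all probes. Against Holstein, 18 were higher and 2 lower (45.5% beside 36.4%, median 0.34 beside -0.05). In unknown against Holstein animals 13 were higher and 1 lower (31.8% beside 36.8%, median 0.17 beside 0.01), and in Holstein against cross-breed animals 9 were higher and 9 lower (40.9% beside 48.3%, median -0.02 beside 0.01). The 14 calls in unknown against Holstein animals became 6 with slide as a random block and 3 with scan day, while the share of all probes that passed became 18.3% and 6.63%. Those that passed with scan day were OXCT1, ECHS1 and SUCLG2. Without the arrays of low ZFY the median of the 44 probes was 0.30. On the shared slides 0 of 44 passed. With all 43 arrays in 1 fit the calls became 15 for positive and 11 for Holstein against cross-breed animals, beside 30.1% and 37.3% of all probes. Without normalization those for positive against Holstein animals became 8, beside 20.6% of all probes.

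**Figure D4:**
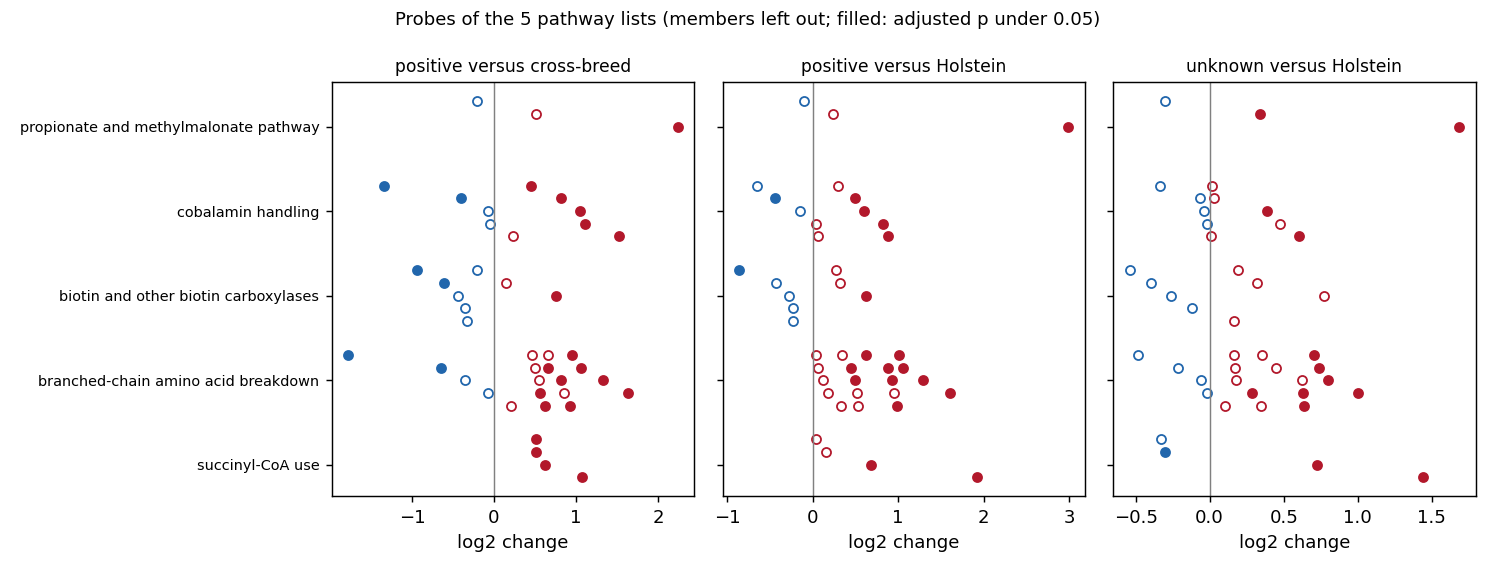
Log2 change (x axes) of each tested probe of the 5 pathway lists (y axis) in 3 comparisons, members left out, red for higher and blue for lower and filled where the adjusted p was under 0.05. ACSS1 is the rightmost point of the first list at 2.24, 2.99 and 1.68.

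Genes that handle cobalamin, the cofactor of MUT, moved in both directions. Of 10 tested, 5 were higher and 2 lower in positive than in cross-breed animals, 70% beside 51.7% of all probes. Transcobalamin TCN2, which carries the vitamin in blood, was higher by 1.11 (limma adjusted p = 0.0019), MMACHC, which processes it inside the cell, by 1.04 (adjusted p = 0.00081), and its receptor CD320 by 0.82 (adjusted p = 0.0028). MTR, the cobalamin-dependent methionine synthase, was higher by 1.52 (limma adjusted p = 7.01e-05). MMAB, which makes the cofactor form used by MUT, was higher by 0.45 (limma adjusted p = 0.0282), and MMADHC, which directs cobalamin to its enzymes, was lower (log2 change -0.40, adjusted p = 0.0285). The last pair lost their calls with slide as a random block (limma adjusted p = 0.0632 and 0.0536). The other probe counted as lower, MTRR, was well above background in only 1 of 4 positive and 0 of 5 cross-breed animals, so its difference has no measured size. Against Holstein, 4 were higher (TCN2, MTR, ABCD4 and MMAA) and MMADHC lower, 50% beside 36.4% of all probes. In unknown against Holstein animals TCN2 (0.60) and ABCD4 (0.39) were higher (limma adjusted p = 0.00485 and 0.027), 20% beside 36.8%. They were 0.88 and 0.38 without the arrays of low ZFY, and with scan day as a block neither passed (limma adjusted p = 0.11 and 0.397).

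Of the 8 probes for biotin metabolism and the other biotin carboxylases, 1 was higher and 2 lower in positive than in cross-breed animals, with a median of -0.34. That was 37.5% beside 51.7% of all probes. The higher one was BTD, which recycles biotin (0.76, limma adjusted p = 0.0196). The lower ones were 1 of 2 probes for ACACB, an acetyl-CoA carboxylase (-0.61, limma adjusted p = 0.0398, or 0.0832 with slide as a block), and SLC5A6, a vitamin transporter that was well above background in only 1 of 4 positive and 3 of 5 cross-breed animals. The probes for MCCC1 and PC, other carboxylases that use biotin, differed by -0.33 and -0.44 without passing (limma adjusted p = 0.406 and 0.0946). Against Holstein, PC was lower (-0.86, limma adjusted p = 0.0102) and BTD higher (0.62, adjusted p = 0.00578), 25% beside 36.4% of all probes. None of the 8 passed in unknown against Holstein animals.

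The breakdown of branched-chain amino acids, which feeds propionyl-CoA, held 19 tested probes. In positive against cross-breed animals 9 were higher and 2 lower, 57.9% beside 51.7% of all probes. Against Holstein 10 were higher and 0 lower, 52.6% beside 36.4%. BCKDHA, a subunit of the branched-chain keto acid dehydrogenase, was higher by 0.93 and 0.45 (limma adjusted p = 0.000253 and 0.00309), and BCKDK, the kinase that inhibits the complex, by 1.63 and 1.61 (adjusted p = 0.00295 and 0.00084). AUH, an enzyme of leucine breakdown, was 1.06 above cross-breed animals (limma adjusted p = 0.000263). Of 2 probes for the transaminase BCAT2, one passed as higher but was not well above background in any cross-breed animal, and the other, well above background on all arrays, did not pass (-0.35, limma adjusted p = 0.136). The crotonase ECHS1 was higher by 0.57 and 0.92 (adjusted p = 0.0195 and 5.36e-05). ALDH6A1, which forms propionyl-CoA from the valine product, was lower than in cross-breed animals (-1.77, limma adjusted p = 0.000768) and higher than in Holstein (1.01, adjusted p = 0.0217). It was well above background in only 5 of 13 Holstein animals, so its differences from Holstein have no exact size. Holstein animals were lower in it than cross-breed animals (-2.78, limma adjusted p = 1.21e-06). ACAD8, an enzyme of valine breakdown, was lower than in cross-breed animals (-0.64, adjusted p = 0.00463). Against Holstein, the thiolase ACAT1, which acts late in isoleucine breakdown, was higher by 1.29 (limma adjusted p = 0.000121), as was 1 of 2 probes for the dehydrogenase ACADSB (1.06, adjusted p = 0.000296). The other ACADSB probe did not pass (0.35, adjusted p = 0.127).

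In unknown against Holstein animals 7 of the 19 probes were higher and 0 lower, 36.8% beside 36.8% of all probes. ECHS1 was higher by 0.74 (limma adjusted p = 6.41e-05), or 0.61 without the arrays of low ZFY, and passed with slide or scan day as a block (adjusted p = 0.00255 and 0.00929). ALDH6A1, well above background in only 5 of 13 Holstein animals, was higher by 1.004 (limma adjusted p = 0.00339), a size that is not exact. ACAT1 was higher by 0.70 (limma adjusted p = 0.025) and HIBADH, another enzyme of valine breakdown, by 0.63 (adjusted p = 0.00134). Without the arrays of low ZFY, ALDH6A1, ACAT1 and HIBADH were 0.70, 1.16 and 0.18. With scan day as a block none of these passed (limma adjusted p = 0.257, 0.125 and 0.101). BCKDK did not pass (0.62, limma adjusted p = 0.144), with a value of 1.54 without those arrays, and neither did BCKDHA (0.17, adjusted p = 0.256), with 0.41 without them.

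Succinyl-CoA, the product of MUT, is used by succinyl-CoA synthetase and by the ketone-using enzyme OXCT1. All 4 probes of this list were higher in positive than in cross-breed animals, beside 51.7% of all probes that passed and 25.5% as higher. OXCT1 was higher by 1.08 (limma adjusted p = 0.00251), SUCLG2 by 0.63 (adjusted p = 0.00361), SUCLG1 by 0.51 (adjusted p = 0.0115) and SUCLA2 by 0.51 (adjusted p = 0.0306, or 0.0531 with slide as a block). Against Holstein, OXCT1 (1.92) and SUCLG2 (0.68) were higher (limma adjusted p = 3.32e-05 and 0.000237), 50% beside 36.4% of all probes. In unknown against Holstein animals the same 2 probes were higher (1.44 and 0.72, limma adjusted p = 8.35e-05 and 3.54e-05) and SUCLA2 was lower (-0.30, adjusted p = 0.0255). That was 75% beside 36.8% of all probes. Without the arrays of low ZFY the values were 1.76, 0.65 and -0.23. With scan day as a block OXCT1 and SUCLG2 passed (limma adjusted p = 0.00846 and 0.00924) and SUCLA2 did not (0.273).

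Fibre-type markers moved with these comparisons. All 6 fast fibre probes, for MYH1, TNNT3, TNNC2, MYLPF and ACTN3, were lower in positive than in cross-breed animals, with a median log2 change of -3.80, and than in Holstein, with a median of -4.58. Their summed log2 signal, led by TNNC2, was 16.78 in S21, 14.20 in S54, 14.72 in S56 and 15.55 in S57. It ran from 18.73 to 19.68 in cross-breed and from 19.35 to 20.16 in Holstein animals. No control array reached as low as the highest positive animal. Of all single probes, 43.3% did not overlap between positive and cross-breed animals and 16.4% between positive and Holstein animals. Of 5 slow fibre probes, 4 were higher in positive than in cross-breed animals, and against Holstein 1 was higher and 1 lower. Of all probes, 51.7% passed against cross-breed animals (25.5% as higher and 26.2% as lower). Against Holstein 36.4% did (17.7% as higher and 18.7% as lower). In unknown against Holstein animals 5 of 6 fast fibre probes (median -2.88) and 2 of 5 slow fibre probes (median -0.63) were lower. There 36.8% of all probes passed. The slow fibre sum, led by TNNC1, was 20.15 to 20.54 in positive, 18.95 to 19.73 in cross-breed and 19.87 to 20.34 in Holstein animals.

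These sums also varied among the unknown animals. On slide 7, where PCCB was lowest, the slow fibre sum was 18.85 to 19.31 and the fast fibre sum 18.76 to 19.24, and on slide 5 they were 19.41 to 19.61 and 16.02 to 18.09. Set B, with PCCB at 12.21 to 12.89, had slow fibre sums from 19.56 to 20.78 and fast fibre sums from 13.59 to 19.03. In set A the slow fibre sums were 18.85 to 19.96 and the fast fibre sums 16.02 to 19.44. Animal 52 had PCCB at 12.52 with a fast fibre sum of 19.03, and animal 79 had 12.76 with 13.84. The part of fibre type in the PCCB result was not tested.

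**Figure D5:**
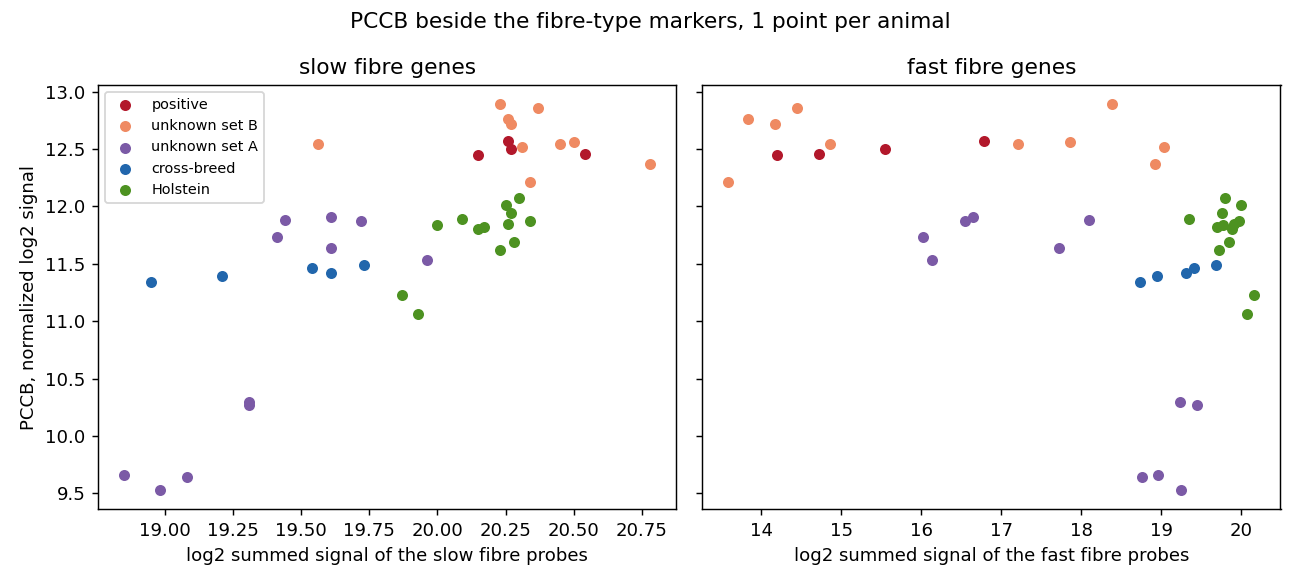
PCCB log2 signal (y axis) beside the log2 summed signal of 5 slow fibre probes (left) and 6 fast fibre probes (right), 1 point per animal. The animals of lowest PCCB, 9.53 to 10.30, had slow fibre sums of 18.85 to 19.31, and set B spread over fast fibre sums of 13.59 to 19.03.

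Markers of some other cells moved too. All 3 tested adipocyte probes (ADIPOQ, FABP4 and CIDEC) were higher in positive than in cross-breed animals (median 4.09) and 0 of 3 passed against Holstein. In these comparisons 51.7% and 36.4% of all probes passed. The adipocyte sum, led by FABP4, was 10.16 to 11.35 in positive, 5.48 to 7.82 in cross-breed and 7.77 to 12.17 in Holstein animals. Of 4 endothelial probes, 3 were higher in each comparison (VWF, KDR and CDH5, medians 0.90 and 1.25). The endothelial sum, led by VWF, was 12.34 to 13.32 in positive, 11.25 to 12.23 in cross-breed and 10.38 to 11.98 in Holstein animals. It was 12.95 to 13.32 on slide 5 and 11.07 to 11.84 on slide 7. Of 6 fibroblast probes, 3 were lower and 1 higher against cross-breed animals and 5 were lower against Holstein. In unknown against Holstein animals 3 of 4 endothelial probes were higher (median 1.21) and 3 of 6 fibroblast probes lower (median -0.66). Of 9 skeletal muscle probes 1 was higher and 4 lower there, and 0 of 3 adipocyte probes passed, beside 36.8% of all probes. Leukocyte markers moved little: 1 of 6 probes was lower against each control group, and 0 of 6 passed in unknown against Holstein animals. Of 3 smooth muscle probes, 1 was higher and 1 lower against cross-breed animals and 1 was higher against Holstein. In unknown against Holstein animals 2 of those 3 were lower. The 1 erythroid probe tested was higher against cross-breed animals only. The part of these markers in the results for PCCA and MUT was not tested. Markers of skeletal muscle, led by myoglobin, were bright on every array, with sums of 19.04 to 20.23.

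Over the 43 arrays the spread of PCCB (SD 0.839) exceeded that of 70.8% of the probes, that of PCCA (0.517) 35.9% and that of MUT (0.484) 31.4%. Among the probes most like PCCB by Pearson's r over the 43 arrays, out of 12449 with a gene symbol, were LDHD (0.916), NQO2 (0.914), ME3 (0.911), TSC2 (0.904) and SYNGR1 (0.903). They encode the mitochondrial D-lactate dehydrogenase, a quinone reductase, the mitochondrial malic enzyme, tuberin and synaptogyrin. TSC2 had 11.26 ± 0.0702 in positive (SD, n = 4), 10.45 ± 0.196 in cross-breed (n = 5) and 10.62 ± 0.283 in Holstein animals (n = 13). The probes most like PCCA were LRPPRC (0.888), NNT (0.885) and SUCLG2 (0.881), and those most like MUT were PECR (0.878), PDK1 (0.864) and PPIF (0.861). Over the same arrays PCCA and MUT had r = 0.81, higher than 99.8% of the probes had with PCCA. PCCB had 0.32 with PCCA and 0.56 with MUT, higher than 72.5% and 88.7% of the probes had with PCCB. These values share arrays and slides, pool the clusters of PCCB, and are descriptions from which no order of likeness among the 3 members is drawn.

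IPO9, the other gene of the classifier, did not follow PCCB in the Holstein animals. Its log2 signal was 15.60 to 15.85 in positive, 11.14 to 12.80 in cross-breed and 15.50 to 16.53 in Holstein animals. The Holstein range of IPO9 overlapped with the positive one, whereas PCCB was lower in every Holstein animal than in any positive one. In set B it was 14.68 to 16.06 and in set A 12.48 to 14.46.

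By the RefSeq gene order of assembly ARS-UCD2.0, the nearest genes to PCCB with a matched probe were STAG1 on one side and EPHB1 on the other. STAG1 encodes a cohesin subunit and EPHB1 an ephrin receptor. STAG1 did not share the pattern of PCCB, with 5.79 ± 0.145 in positive, 6.91 ± 0.204 in cross-breed and 5.34 ± 0.379 in Holstein animals (SD, n = 4, 5 and 13). EPHB1 was 7.43 to 8.05 and well above background in all 4 positive animals. It was well above background in 2 of 5 cross-breed, 0 of 13 Holstein, 5 of 10 set B and 2 of 11 set A animals, which left most of the controls without a measured comparison. No probe was matched here to the genes between them, which does not show that the array lacks one.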

How the data were processed

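Each of the 43 arrays was read from its scanner file. The intensity values deposited by the authors are background-subtracted, detrended processed signals made by Agilent Feature Extraction 9.5.1.1 from 2 linked scans. Outlier spots were left out, the log2 signal was normalized with cyclic loess (limma 3.58.1, R 4.3.3, method fast) together with the spike-in probes, and spots of a probe were averaged. As in the methods, probes under 4 on at least 30 arrays were removed. The scale of that limit is not given there and was taken as log2 here, which removed 5121 of 21475 probes, so the probes kept need not be those of the study. Groups were compared with limma (lmFit and eBayes, two-sided, Benjamini-Hochberg over 16354 probes, threshold 0.05), on the arrays of the 2 groups only, with slide as a block on the shared slides. Of all probes, 3524 were matched to RefSeq by accession (assembly ARS-UCD2.0). Correlations used 100000 permutations. The fit was tested on simulated data.

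The members, the gene lists and the comparisons were chosen with earlier results of these data known. Named were the members, probes of the 5 pathway lists that passed with a fold of at least 2 or had the largest change in either direction, and the 6 probes most like PCCB, of which 1 is not reported here. Other list probes, IPO9, the probes like PCCA and MUT, and the neighbours of PCCB were named after their values were seen. Sets A and B were read from the study's own plot. Each array is 1 animal, so p-values measure the spread between animals and any batches that hold them. Arrays carry no read depth, and their number limits the precision. Alternatives were other normalizations, background corrections, filters, batch blocks, arrays left out and the authors' value table. Blocks for single list probes, the value table, the omission of the arrays of low ZFY and the relations within sets A and B were chosen after seeing the data.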

Additional observations from a re-analysis of the deposited data

How the results depend on the processing

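Without normalization between arrays, positive minus cross-breed was -0.05 for PCCB, -0.70 for PCCA and -0.38 for MUT. The median of all probes was then -1.07, and relative to it the changes were 1.02, 0.37 and 0.69. PCCB moved to 1.14 with 75th percentile scaling, 1.55 when every pair of arrays was normalized by cyclic loess and 0.98 with normexp. PCCA lost its call with quantile normalization (0.35), normexp (0.27), all 43 arrays in 1 fit (0.48) and slide or scan day as a block (0.47 each), and MUT with every pair (0.49). With every pair the PCCA value was instead 1.80, 2.09 against Holstein (main 0.76) and 1.4 in unknown against Holstein animals (main 0.80), and with normexp the last pair were 0.29 and 0.36. Leaving out each array in turn gave 0.43 to 0.58 for PCCA. In Holstein against cross-breed animals PCCA passed without normalization (-1.44) and with 75th percentile scaling (-0.52), MUT without normalization (-1.06), and PCCB with every pair (0.39), normexp (0.34) and the authors' value table (0.35). Positive minus Holstein lost its call without normalization (PCCB 0.51, PCCA 0.74, MUT 0.68), and PCCB in 1 fit (0.75). In unknown against Holstein animals MUT did so with scan day as a block (0.58), and PCCB turned to 0.85 without the 11 arrays of low ZFY. On the shared slides no member passed in any setting run there, with PCCB at -0.10 to 0.10, PCCA at -0.10 to 0.61 and MUT at 0.26 to 0.52, and in the fits with arrays of other slides PCCB was 0.79 without passing. The pathway probes that passed numbered 15, 11 and 1 in 1 fit (main 26, 18 and 0, for positive and Holstein against cross-breed animals and for the shared slides), 8 without normalization for positive against Holstein (main 20), and 6 and 3 with slide or scan day as a block for unknown against Holstein (main 14). PCCA and MUT had r = -0.12 in the unknown animals with every pair (main 0.77). The causes were not tested. PCCA cleared the background on 42 of 43 arrays and the other members on all 43. No paired analysis was possible because the animals of the groups share no numbers.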
